A study of Mus musculus with 77 samples.

Results

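The complement components and regulators followed here are 9 genes, *C1qa*, *C1qb*, *C1qc*, *C2*, *C3*, *C4b*, *Cfb*, *Cfi* and *Serping1*. They were measured in the retina of 77 C57BL/6 mice, on 2-color arrays that carried the retinal RNA of 1 mouse each and Universal Mouse Reference RNA. All probes that are not controls and whose transcript maps to one of the 9 symbols were taken, which gave 11 of the 55681 probes on the array, a pair each for *C3* and *Serping1* and 1 for each of the other genes. The 9 genes were chosen by measured values of these same arrays, with the differences between oxygen groups known, so the comparisons of the 9 genes among the groups are given as a description without *p*-values.

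In the oxygen-induced retinopathy (OIR) groups, pups breathed 75% oxygen from postnatal day 7 (P7) to P12 and room air afterwards, and the control groups stayed in 21% oxygen. Retinas were taken on P12 from 13 OIR and 12 control mice, on P17 from 13 and 12, and on P28 from 13 and 14. No gene was altered in any group, and all mice are of the same strain. Pups of a litter were divided over the 3 days and an entire litter went to either oxygen level. As the litter of a mouse is not given, effects of litter and of oxygen cannot be told apart, and *p*-values measure the spread between mice. The model stands for vessel loss in high oxygen and vessel regrowth after return to room air, in pups that are not premature.

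Complement is a cascade of blood and tissue proteins that tags cells, debris and synapses for removal. In the classical pathway the recognition molecule C1q, built from the products of *C1qa*, *C1qb* and *C1qc*, activates proteases that cut C4 and C2, and the cut pieces form the enzyme that cleaves C3. The alternative pathway amplifies C3 cleavage with factor B (*Cfb*), while C1 inhibitor (*Serping1*) blocks the first proteases and factor I (*Cfi*) degrades active C3 and C4 fragments. In nervous tissue C1q comes mainly from microglia, and C4 and C3 are known to be made by reactive glia.

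Values are log2 ratios of retina over reference. The labels assign the retina to Cy5, but 10 of 10 rod photoreceptor genes were brighter in Cy3 on all 77 arrays, and in the deposited table their log2 ratio of Cy3 over Cy5 was at least 2.88. Retina over reference therefore means Cy3 over Cy5 here, which opposes the direction in the labels. The main value, the offset ratio, was made from the scanner signals with a background correction that adds 50 units and pulls dim spots towards 0. The deposited ratio is the table of processed values, with no such offset, so it gives larger and noisier differences for dim probes. A gene with several probes is given by its brightest one. A retina is a mixture of cells, so more RNA per cell and more cells of a type cannot be told apart.

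The arrays differed in brightness between days. The median retina signal of an array had a group median of 40 to 42 units on P12 and P17 and of 57 to 59.5 units on P28. The number of probes well above background ran from 13765 to 34306 over all arrays. Within P28 it was 16887 and 19028 in OIR mice 18 and 22. In control mice 41, 65, 69, 75 and 85 it was 19938 to 20967, and in all other P28 mice 30817 to 34306. The P28 groups were thus not balanced in brightness. The arrays lay on 11 slides, and the 8 arrays of slide 9 stood apart in *C3*, as shown further on. Of the rod genes, all 10 were well above background on all arrays, as a retina should show. The normalization centers each array near 0, so values are relative to the bulk of the probes and a shift of the whole array cannot be seen in them.

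The genome places several of the 9 genes side by side. In RefSeq (GRCm38.p6), *C1qb*, *C1qc* and *C1qa* follow each other on chromosome 4 with no gene between them. *C4b*, *Cfb* and *C2* lie in the same stretch of chromosome 17, with 1 gene between *Cfb* and *C2*, and *C3* lies elsewhere on that chromosome. *Serping1* is on chromosome 2 and *Cfi* on chromosome 3. The RefSeq promoter windows matched 3 of the 9 genes. All 3 are shown, those of *C1qb*, *C1qc* and *C3*. Each window holds 250 bases before the start of the gene and 50 after it, 5′ to 3′ on the gene's strand, which is the minus strand for all 3, and capitals mark a motif match.
C1qb, chr4:136886151-136886450: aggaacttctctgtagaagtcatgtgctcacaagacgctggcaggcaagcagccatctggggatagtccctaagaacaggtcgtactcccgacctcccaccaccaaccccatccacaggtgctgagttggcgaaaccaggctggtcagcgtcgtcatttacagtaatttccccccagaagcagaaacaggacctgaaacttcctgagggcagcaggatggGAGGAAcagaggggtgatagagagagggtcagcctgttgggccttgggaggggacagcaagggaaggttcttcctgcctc
C1qc, chr4:136892865-136893164: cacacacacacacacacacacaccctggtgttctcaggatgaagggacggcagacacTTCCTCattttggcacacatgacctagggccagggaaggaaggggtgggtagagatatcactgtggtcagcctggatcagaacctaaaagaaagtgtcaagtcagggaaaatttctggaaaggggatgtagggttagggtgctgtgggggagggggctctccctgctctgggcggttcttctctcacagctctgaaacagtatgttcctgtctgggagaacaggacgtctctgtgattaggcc
C3, chr17:57228087-57228386: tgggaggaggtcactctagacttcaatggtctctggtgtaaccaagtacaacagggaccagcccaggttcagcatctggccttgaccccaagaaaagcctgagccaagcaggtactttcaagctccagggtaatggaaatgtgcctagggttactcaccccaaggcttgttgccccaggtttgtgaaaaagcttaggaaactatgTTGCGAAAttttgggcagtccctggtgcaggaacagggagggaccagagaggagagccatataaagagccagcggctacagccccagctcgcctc
On both strands, 5 motifs were searched. The core GAGGAA of the myeloid factor PU.1 was found once in the *C1qb* window, at position −30 from the start, and once in the *C1qc* window, on the opposite strand at position −193. It occurs in 28.3% of all 32851 promoter windows of this length. The C/EBP motif TTGCNNAA was found in the *C3* window as TTGCGAAA, at position −45, and occurs in 10.8% of all windows. The STAT motif TTCNNNGAA (8.3% of all windows), the IRF motif GAAANNGAA (8.56%) and the kB motif GGANTTTCC (1.25%) had no match in these 3 windows. A match is a run of letters and does not show binding.

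*C4b* separated the OIR and control mice more widely than any other of the 9 genes. It encodes C4, the substrate of the first classical and lectin proteases. On P12 the lowest, median and highest offset ratio were −1.09, −0.71 and −0.47 in control mice and −0.91, −0.69 and −0.31 in OIR mice. The groups overlapped over nearly their whole range on that day. On P17 the control values were −0.96, −0.58 and −0.27, and the OIR values were 0.66, 1.14 and 2.08. On P28 the control values were −0.41, −0.054 and 0.24, and the OIR values were 0.79, 1.44 and 2.20. On P17 and P28 every OIR mouse thus lay above every control mouse. This holds for 0.119% of all probes on P17 and 0.0054% on P28, and for 0% on P12. The OIR mice exceeded the control mice by 0.089 on P12 (standard error 0.070), by 1.79 on P17 (standard error 0.13) and by 1.58 on P28 (standard error 0.13) on the log2 scale of the offset ratio, the last pair being folds of 3.45 and 2.99.

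The *C4b* spot was near background in part of the mice where it was low. On P12 it passed the scanner's test of a signal well above background in 8 of 13 mice with OIR and 8 of 12 without, and on P17 in 9 of 12 control mice. It passed in all OIR mice of P17 and all mice of P28. With the deposited ratio the differences were 0.086 (standard error 0.24), 3.47 (standard error 0.19) and 2.06 (standard error 0.18), and the OIR and control mice of P17 and of P28 were again apart. The 6 slides with OIR and control mice of P17 gave differences of the offset ratio between 1.45 and 2.69, and the 3 such slides of P28 gave 1.37 to 2.04. In the reference channel the same spot was also brighter in OIR mice, by 0.11 on P17 (unadjusted p = 0.00149 and adjusted p = 0.9999 in limma) and by 0.11 on P28 (unadjusted p = 0.00211, adjusted p = 0.847), which is a small part of the retina difference and lowers the ratio. Mouse *C4a* is a near-identical neighbor without a probe of its own here, and whether its transcripts bind the *C4b* probe was not tested.

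**Figure D1:**
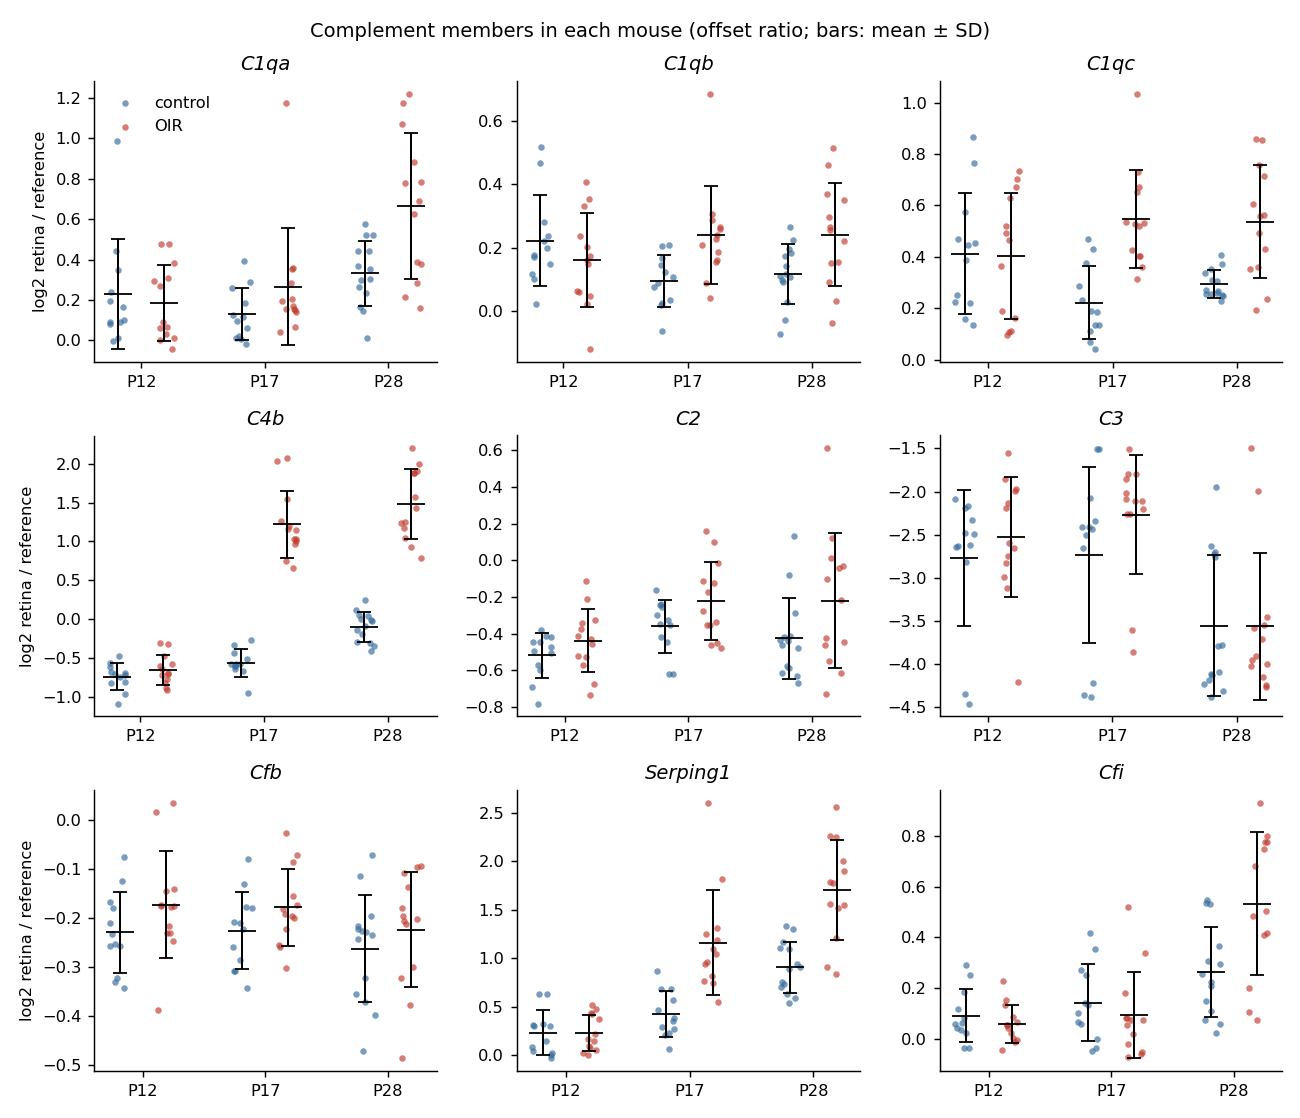
Offset ratio (log2 retina over reference) of the 9 genes in each of the 77 mice, by day and oxygen group, with the mean and SD of each group as black bars; the scale of the vertical axis differs between genes. *C4b* lies between 0.66 and 2.20 in the OIR mice of P17 and P28 and is at most 0.24 in the control mice of all days.

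*Serping1* was also higher in most OIR mice after return to room air. It encodes C1 inhibitor, a secreted inhibitor of the classical, lectin and contact-system proteases. Its lowest, median and highest offset ratio on P12 were −0.032, 0.22 and 0.64 in control and −0.0010, 0.16 and 0.51 in OIR mice. On P17 they were 0.067, 0.37 and 0.87 in control and 0.54, 1.04 and 2.60 in OIR mice, and on P28 0.54, 0.90 and 1.34 against 0.84, 1.77 and 2.56. The groups overlapped on all days, but 9 of 13 OIR mice on P17 and 10 of 13 on P28 were above the highest control mouse, compared with 0 on P12. The difference was −0.00090 on P12 (standard error 0.081), 0.74 on P17 (standard error 0.16) and 0.80 on P28 (standard error 0.15).

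The scales and the probes differed in how large the *Serping1* difference was on each day. In the deposited values it was 1.99 on P17 (standard error 0.25) but 0.47 on P28 (standard error 0.27), where 1 of 13 OIR mice exceeded the highest control mouse. The other *Serping1* probe, A_51_P376238, which was well above background in 3 of 25 mice on P12 and in 24 of 27 on P28, gave 0.15 on P17 (standard error 0.096) and 0.58 on P28 (standard error 0.13). With the offset ratio both probes thus had their larger difference on P28, and with the deposited ratio both had it on P17. Within the 6 slides of P17 that held both groups, the brightest probe differed by 0.47 to 1.59, and within the 3 of P28 by 0.62 to 1.16.

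The C1q genes showed small differences that ran the same way. *C1qc*, the C chain, had a lowest, median and highest offset ratio of 0.040, 0.19 and 0.47 in control and of 0.31, 0.53 and 1.03 in OIR mice on P17. All 13 OIR mice lay above the control median, 8 of them above every control mouse. On P28 the values were 0.23, 0.27 and 0.41 in control and 0.19, 0.56 and 0.86 in OIR mice, so that the control mice lay close together and the OIR mice spread to both sides of them, mostly above. The difference was −0.0089 on P12 (standard error 0.094), 0.33 on P17 (standard error 0.066) and 0.24 on P28 (standard error 0.059). Its deposited ratio differed by 1.08 on P17 (standard error 0.19) and 0.00066 on P28 (standard error 0.16), so the P28 difference was seen with the offset ratio and not with the deposited one.

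*C1qb*, the B chain, differed by −0.061 on P12 (standard error 0.057), 0.14 on P17 (standard error 0.049) and 0.12 on P28 (standard error 0.049), and 11 of 13 and 10 of 13 OIR mice of the later days were above the control median. *C1qa*, the A chain, differed by −0.042 on P12 (standard error 0.091), 0.14 on P17 (standard error 0.089) and 0.33 on P28 (standard error 0.10). On P28 its lowest, median and highest values were 0.012, 0.33 and 0.58 in control and 0.16, 0.69 and 1.22 in OIR mice, with 8 of 13 OIR mice above every control mouse. Less of the *C1qa* signal was measurable earlier, as the probe was well above background in 14 of 25 mice on P12, 11 of 25 on P17 and 25 of 27 on P28. On the deposited scale the P17 differences of *C1qa* and *C1qb* were 0.80 and 0.75 (standard errors 0.49 and 0.22), and those of P28 0.70 and 0.28 (standard errors 0.32 and 0.22). One OIR mouse of P17 on slide 9 carried the highest value of its group for 5 of the 9 genes, at 1.18 for *C1qa*, 0.69 for *C1qb*, 1.03 for *C1qc*, 2.60 for *Serping1* and 0.52 for *Cfi*. When slide 9 was left out, the P17 difference of *C1qa* was 0.067, that of *C1qb* 0.11, that of *C1qc* 0.29 and that of *Serping1* 0.59, and that of *C4b* 1.62.

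**Figure D2:**
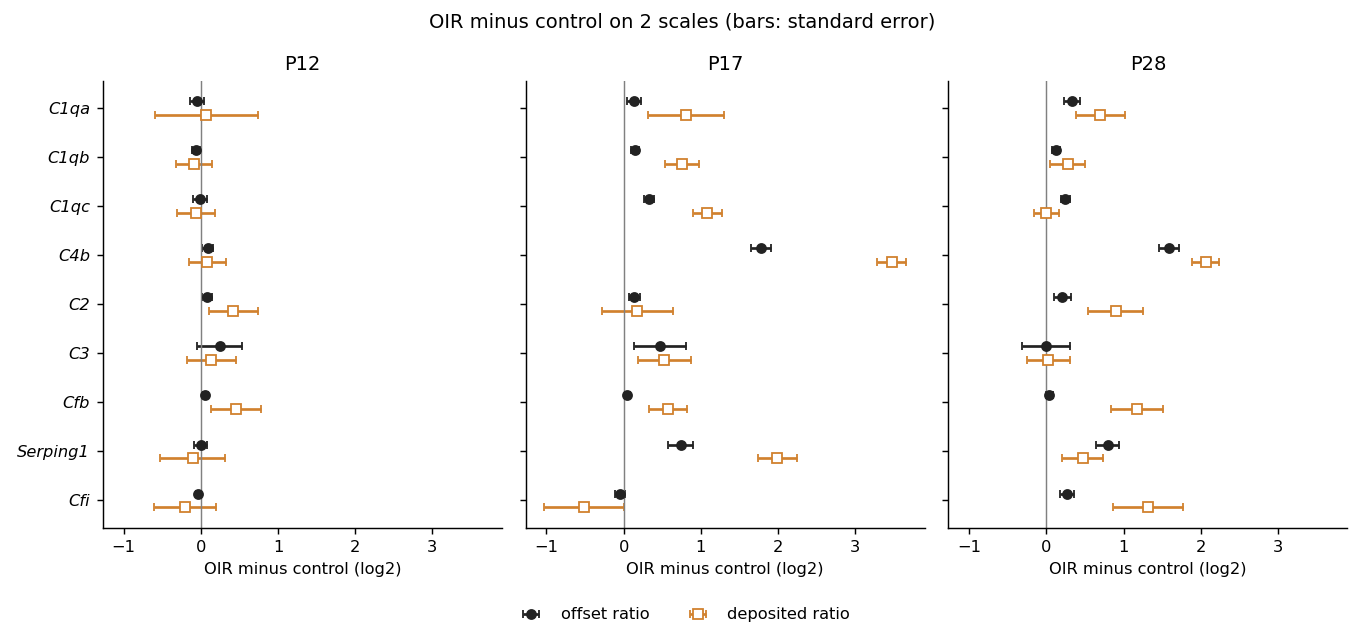
OIR minus control (log2) of the brightest probe of each of the 9 genes on P12, P17 and P28, with standard errors from limma, for the offset ratio (filled circles) and the deposited ratio (open squares) on one horizontal scale. *C4b* has the largest difference on P17 and P28 on both scales, and no *Cfb* spot of a control mouse was well above background, so the plotted *Cfb* differences have no measured control level.

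*C3*, the central component, gave a different picture with each of its probes. The brighter probe, A_55_P2038525, was well above background in all 77 mice and lay far below the reference. On P17 its lowest, median and highest offset ratio were −4.38, −2.42 and −1.51 in control and −3.87, −2.11 and −1.51 in OIR mice, and on P28 −4.38, −3.95 and −1.95 against −4.27, −3.91 and −1.50. Its difference was 0.25 on P12 (standard error 0.29), 0.47 on P17 (standard error 0.34) and −0.0073 on P28 (standard error 0.31), each within the spread between mice. The other probe, A_51_P110301, also well above background in all mice, differed by 0.22 on P12 (standard error 0.23), 0.81 on P17 (standard error 0.27) and 0.33 on P28 (standard error 0.24). On P28 all 13 OIR mice lay above the control median of that probe, and on P17 12 of 13 did.

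The spread of *C3* followed the slide. Slide means accounted for 83.7% of the variance within groups at the brighter probe and for 75.5% at the other, compared with 8.14% for *C4b* and 42.8% for the brightest *Serping1* probe. On slide 9, which held mice of 5 groups, the 2 probes lay 1.48 and 1.02 below their group means, and on slide 11 they lay 1.28 above. The brightness of the array accounted for 52.3% and 51.9% of the same variance. With the slide as a block, the OIR difference of the brighter probe was 0.0032 on P12 (standard error 0.14), 0.30 on P17 (standard error 0.18) and 0.17 on P28 (standard error 0.068), and that of the other probe was −0.011 (standard error 0.12), 0.76 (standard error 0.18) and 0.52 (standard error 0.11). On each of the 3 slides with OIR and control mice of P28, the OIR mice were higher with both probes, by 0.13 to 0.22 and by 0.40 to 0.73. Using the deposited ratio, the other probe differed by 0.0054 on P12 (standard error 0.11), 1.31 on P17 (standard error 0.18) and 0.65 on P28 (standard error 0.16), and all 13 OIR mice exceeded the control median on each of the later days.

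**Figure D3:**
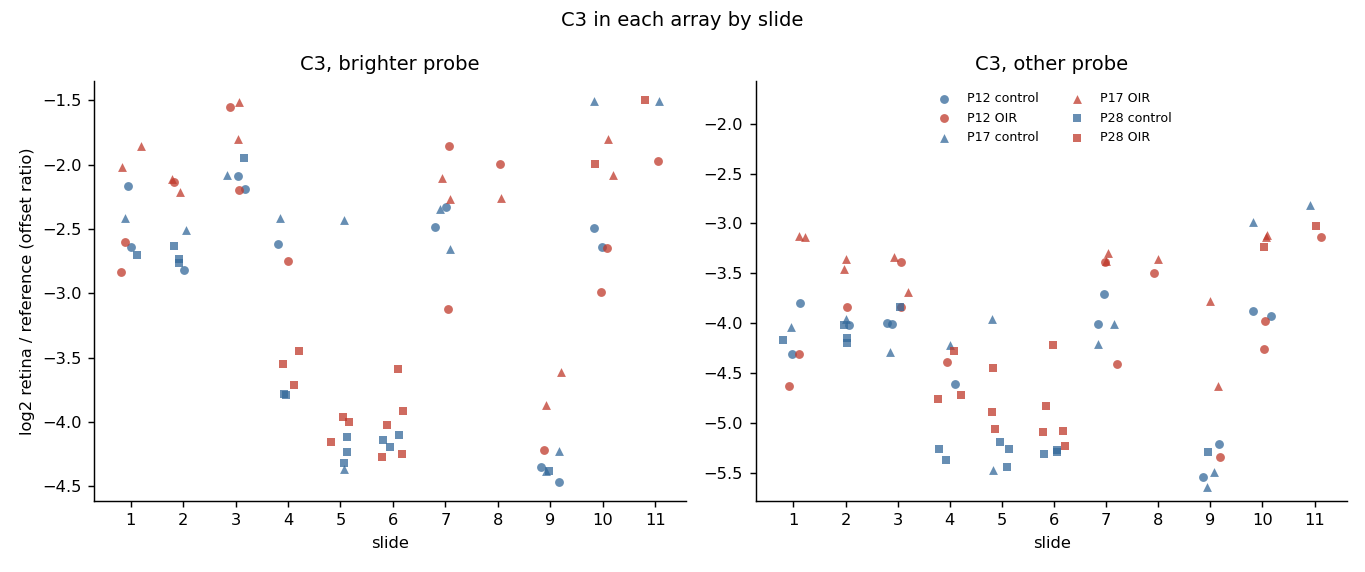
Offset ratio (log2 retina over reference) of both *C3* probes in each array, set out by slide, with color for oxygen group and symbol for day. The arrays of slide 9 lie lowest and those of slide 11 highest relative to their groups, by 1.48 and 1.28 at the brighter probe.

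The genes of the C3 convertases and factor I were dim. *C2*, the partner of C4 in the classical convertase, differed by 0.080 on P12 (standard error 0.059), 0.14 on P17 (standard error 0.072) and 0.20 on P28 (standard error 0.11), and 8, 8 and 9 of the 13 OIR mice exceeded the control median. *Cfb*, which supplies the protease of the alternative convertase, differed by 0.056 (standard error 0.038), 0.048 (standard error 0.031) and 0.038 (standard error 0.043). These *Cfb* values compare spots that were mostly at background. No control mouse of any day had a *Cfb* spot well above background, and among OIR mice 0 of 13 did on P12, 1 on P17 and 8 on P28. For P28 this allows only a bound on the group means, without an error. The bound was 1.01-fold higher in the OIR group, with each control array set at its dimmest probe that passed the background test. With the deposited ratio, *Cfb* differed by 0.45, 0.57 and 1.17 (standard errors 0.32, 0.24 and 0.33), also against control spots at background. The deposited *C2* differences were 0.42, 0.18 and 0.90 (standard errors 0.32, 0.46 and 0.36). *Cfi* differed by −0.030 on P12 (standard error 0.036), −0.049 on P17 (standard error 0.063) and 0.27 on P28 (standard error 0.087), and was well above background in 3 of 25, 7 of 25 and 21 of 27 mice. On P28 the lowest, median and highest *Cfi* ratio were 0.025, 0.24 and 0.55 in control and 0.075, 0.50 and 0.93 in OIR mice, and 6 of 13 OIR mice were above every control mouse. In the deposited table the P17 difference of *Cfi* was −0.51 (standard error 0.52) and that of P28 was 1.31 (standard error 0.45).

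Counted together, the 9 genes had median OIR differences of −0.00090 (P12), 0.14 (P17) and 0.24 (P28), beside medians over all genes of −0.0017, −0.0029 and 0.0036. On P12, 4 of the 9 differences were above 0, and on P17 and P28, 8 were. At an adjusted *p* under 0.05 over all probes, 0 of 9 were called on P12, where 0.0233% of all probes were called in either direction. *C1qc*, *C4b* and *Serping1* were called and higher on P17, beside 0.803% of all probes, and *C4b* and *Serping1* on P28, beside 0.0557%. The deposited ratio gave the same 3 genes on P17, beside 1.67% of all probes, and *C4b* alone on P28, beside 0.196%. With the slide as a block, *C4b* was the only one called on P28. Since the 9 genes were picked with these differences known, nothing is read from these counts.

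Between the days, the OIR difference of *C4b* grew by 1.70 from P12 to P17 (standard error 0.17) and moved by −0.20 from P17 to P28 (standard error 0.16). The second step of the deposited ratio was −1.41 (standard error 0.29). The *Serping1* difference grew by 0.74 (standard error 0.20) and then by 0.057 (standard error 0.20), or by 2.09 and −1.52 with the deposited ratio (standard errors 0.47 and 0.46). That of *C1qc* moved by 0.33 and −0.083 (standard errors 0.11 and 0.11), and that of *Cfi* by −0.019 and 0.32 (standard errors 0.098 and 0.096). The deposited *C1qc* steps were 1.14 and −1.08 (standard errors 0.29 and 0.28). From P12 to P17, *C4b* alone of the 9 was called, beside 0.48% of all probes, and from P17 to P28 0 of 9 were, beside 0.278%. The deposited ratio called *C1qc*, *C4b* and *Serping1* in the first step and *C1qc* and *C4b*, both downward, in the second. The slide as a block added *Serping1* to the first. As the 9 genes were picked with their differences known, nothing is read from these calls.

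In control mice, *C4b* and *Serping1* were higher on P28 than on the earlier days. *C4b* went from a mean of −0.74 ± 0.17 (SD, n = 12) on P12 to −0.57 ± 0.17 (SD, n = 12) on P17 and −0.098 ± 0.19 (SD, n = 14) on P28. *Serping1* went from 0.23 ± 0.23 (SD, n = 12) to 0.42 ± 0.23 (SD, n = 12) and 0.91 ± 0.26 (SD, n = 14). These were the 2 of 9 genes called from P17 to P28, beside 13.4% of all probes, and 0 of 9 were called from P12 to P17, beside 1.28%. From P17 to P28, *C3* was also called, and lower, with the slide as a block, by −0.53 (standard error 0.15), and with slide 9 left out, by −1.07 (standard error 0.27). The deposited ratio called *C2* and *C4b* from P12 to P17 and added *C1qa* from P17 to P28. Nothing is read from these calls either, as the 9 genes were picked by values of these same arrays. The P28 arrays were brighter, as given above. With array brightness as a covariate the step from P17 to P28 was 0.35 for *C4b* instead of 0.47 and 0.12 for *Serping1* instead of 0.48, and neither was called.

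Ordered over the 6 groups, the mean offset ratio of *C4b* was highest in P28 OIR mice at 1.48, followed by P17 OIR at 1.22, P28 control at −0.098, P17 control at −0.57, P12 OIR at −0.65 and P12 control at −0.74. Its steps from P17 OIR to P28 control and from there to P17 control were larger than the pooled SD of the neighbors, and the other steps were smaller. *Serping1* had the same first 4 groups in the order, at 1.70, 1.16, 0.91 and 0.42, and its P12 groups were both at 0.23. Its steps from P28 OIR to P17 OIR and from P28 control to P17 control were larger than the pooled SD. The order of the OIR groups depended on the scale. With the deposited ratio, P17 OIR mice came first and P28 OIR mice next for both genes. Their means were 1.92 and 1.81 for *C4b* and 4.31 and 4.26 for *Serping1*, steps smaller than the pooled SD. For *C1qb*, *C1qc*, *C2*, *C3* and *Cfb*, no neighbors in the order of the offset ratio differed by more than their pooled SD. *C1qa* and *Cfi* had 1 such step each, below P28 OIR mice at 0.67 and 0.53. These orders are those of the brightest probes. At the other *C3* probe, P17 OIR mice came first by 0.58, which was more than the pooled SD of 0.52. The other *Serping1* probe had P28 control mice, at 0.31, before P17 OIR mice, at 0.24.

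The reference channel served as a background, as the same reference RNA was on every array. None of the 11 probes was called there on any day. Their reference differences ran from −0.099 to 0.11, and the lowest adjusted *p* in limma was 0.973 for P12, 0.9999 for P17 and 0.847 for P28. At an unadjusted *p* under 0.05, 0, 1 and 3 of the 11 probes passed, which were *C4b* on P17 and *C4b*, *C1qc* and *Serping1* on P28, all brighter in OIR mice, beside 3.71%, 2.7% and 5.69% of all probes.

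Of 50 other complement genes on a list, 49 had a probe, and 1 of them, *Cd93*, differed between OIR and control mice at an adjusted *p* under 0.05. This list was chosen with earlier results of these data known, and it leaves out the complement genes picked by their values on these arrays. Few calls among the rest therefore do not show that the OIR difference is confined to the picked genes. *Cd93* encodes a surface protein of endothelial and myeloid cells that was first described as a C1q receptor. Its lowest, median and highest offset ratio on P12 were 1.34, 1.84 and 2.53 in control and 0.24, 0.79 and 1.34 in OIR mice, a difference of −1.03 (standard error 0.15, adjusted p = 0.00203 in limma). On P17 they were 0.72, 1.39 and 2.07 in control and 2.57, 3.07 and 3.53 in OIR mice, a difference of 1.63 (standard error 0.14, adjusted p = 4.47e-08). On P28 the difference of 0.46 missed the threshold (standard error 0.097, adjusted p = 0.0716), and passed it with the slide as a block, at 0.64 (adjusted p = 0.00214). *Cd93* thus reversed its direction between P12 and P17, where *C4b* went from no separation to a wide one. Over all probes, 1.13% were called on P17 and 0.0611% on P28 in either direction.

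The remaining 48 complement genes did not pass the test on any day. Many of the 49 were dim. On P17, 20 were not well above background in any OIR mouse and 25 in any control mouse. These counts were 26 and 23 on P12 and 20 and 20 on P28. For such genes a difference near 0 does not show a lack of change. The 12 genes that start the classical and lectin pathways had differences between −0.020 and 0.36 on P17, the 7 genes of the terminal pathway between −0.019 and 0.11, the 9 soluble regulators between −0.066 and 0.28, and the 10 membrane regulators between −0.19 and 0.28. *C1ra* and *C1s1*, which encode the proteases that C1 inhibitor blocks, differed by 0.32 and 0.27 on P17 (adjusted p = 0.687 and 0.733) and by −0.12 and −0.23 on P28 (adjusted p = 0.893 and 0.791), and each has a near-identical paralog. The 49 genes had a median difference of 0.0012 for P12, 0.016 for P17 and −0.020 for P28. At an unadjusted *p* under 0.05, 2, 10 and 2 of them passed, beside 3.25%, 15.9% and 8.45% of all 21154 genes. As the complement genes picked by their values had been set apart, these medians and counts do not describe complement as a whole. The deposited ratio added *Cr1l*, a membrane regulator that limits C3 and C4 deposition, on P17, with a difference of 0.42 (adjusted p = 0.00666) in place of 0.28 (adjusted p = 0.297) with the offset ratio. In control mice, *Clu* and *Vtn*, both inhibitors of the terminal pathway, rose from P12 to P17 by 1.19 and 0.85 (adjusted p = 1.58e-05 and 0.0439), though *Vtn* by 0.066 with the deposited ratio (adjusted p = 0.997). From P17 to P28, 1 of the 49 genes rose, *Cd59a* by 0.92 (adjusted p = 1.13e-10), and 10 fell, beside 13.4% of all probes in either direction. These counts were 2 and 2 with array brightness as a covariate and 2 and 14 with slide 9 left out. Of the 10, *Cd93*, with a difference of −0.77, also passed with array brightness as a covariate (adjusted p = 2.02e-05). *Clu*, *Vtn* and *Cd59a* were picked after their values were seen.

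**Figure D4:**
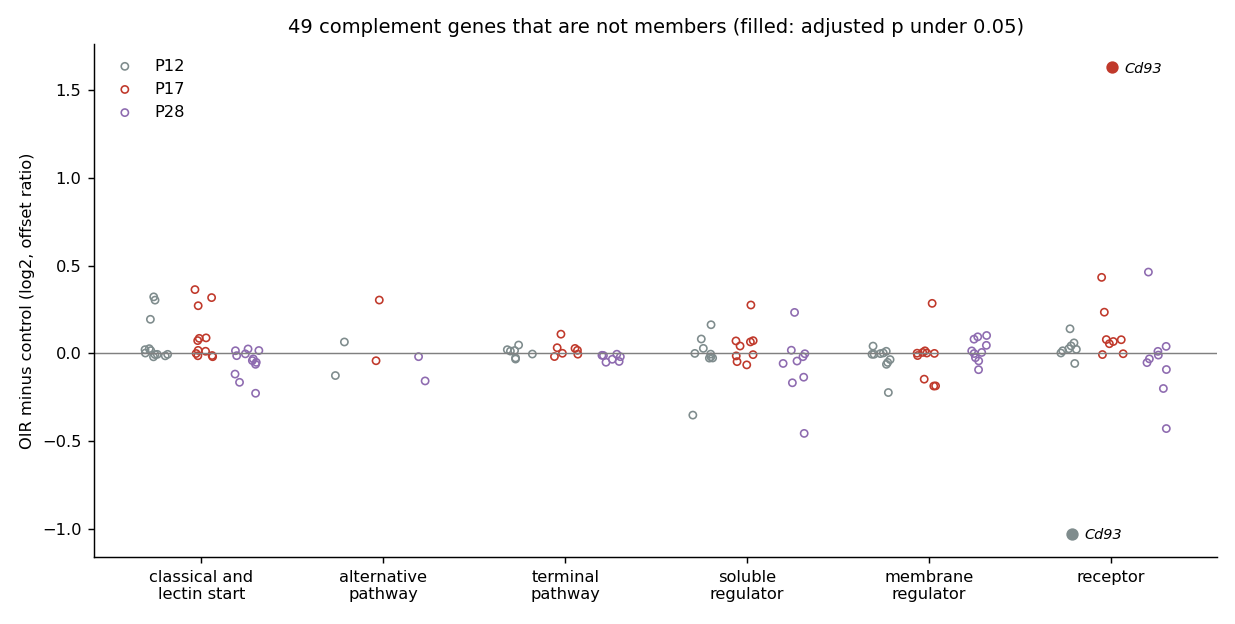
OIR minus control (log2, offset ratio) of the 49 complement genes outside the 9, grouped by role, on P12, P17 and P28, with filled points for an adjusted p under 0.05 in limma. *Cd93* is the only filled gene, at −1.03 on P12 and 1.63 on P17.

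Marker lists of other cell types were read beside the 9 genes. The lists were chosen with earlier results of these data known, so their counts describe these arrays only. Over all probes, 0.0233% were called on P12 in either direction, and 0.803% on P17 and 0.0557% on P28 were called and higher. At an unadjusted *p* under 0.05 in limma, 3.25% (P12), 15.9% (P17) and 8.45% (P28) of all 21154 genes passed. Of 15 reactive glia markers, 12 rose on P17, among them *Gfap* by 0.97 and *Vim* by 1.19, both filament genes (adjusted p = 1.18e-06 and 2.00e-08 in limma), and *Stat3*, a cytokine signal transducer, by 1.51 (adjusted p = 6.77e-09). The mean log2 ratio of that list ran from −1.80 to −0.87 in control and from −0.81 to −0.00074 in OIR mice on P17. On P28, 2 of the 15 were higher (5 with array brightness as a covariate), *Cebpd* by 1.25 (adjusted p = 0.00176) and *Edn2* by 1.36 (adjusted p = 8.46e-06), and the list ran from −1.77 to −1.08 in control and from −1.46 to −0.68 in OIR mice. On P12, 0 of 15 passed at an adjusted or an unadjusted *p* under 0.05.

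Of 18 microglia and macrophage markers, 2 rose on P17, *Aif1* by 0.33 (adjusted p = 0.000619) and *Csf1r* by 0.51 (adjusted p = 0.00580), and 1 on P28, *Csf1r* by 0.41 (adjusted p = 0.0306). Of the 18 differences, 16 on P17 and 13 on P28 were above 0, with medians of 0.23 and 0.059. At an unadjusted *p* under 0.05, 8 and 6 of the 18 passed, beside 15.9% and 8.45% of all genes. The numbers that rose were 4 and 3 with the slide as a block, 9 and 4 with the deposited ratio, and 7 and 2 with array brightness as a covariate. *Cx3cr1*, *P2ry12* and *Tmem119*, which define resident microglia, differed by 0.19, −0.030 and 0.15 on P17 and did not pass (adjusted p = 0.627, 0.749 and 0.800), the value of *P2ry12* being the lowest of the list. The mean log2 ratio of the list ran from −1.25 to −0.41 in control and from −0.82 to −0.43 in OIR mice on P17, and from −1.36 to −0.87 against −1.29 to −0.52 on P28. Of 11 endothelial markers, 2 fell on P12 and 2 rose on P17. None of 7 blood leukocyte markers and none of 10 rod genes passed on any day at an adjusted *p* under 0.05, and 0 and 1 did at an unadjusted one on P17. Of 9 pigment epithelium markers, *Rpe65* was lower on P17, with a difference of −0.81 (adjusted p = 0.0322, and 0.0787 with the slide as a block). Between 3 and 5 of the leukocyte markers were not well above background in any mouse of a group. The part of these cell types in the differences of the 9 genes was not tested.

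Between mice of the same group, the ratios of several of the 9 genes went together. Group means were removed, and all 36 pairs were compared over the 77 mice. In a 2-sided permutation test within groups with 100000 resamples, 21 pairs had an adjusted *p* under 0.05 for both Pearson's r and Spearman's rho, 12 of them with a positive r. With slide means also removed, 13 pairs did. The share of such pairs among genes outside the 9 was not measured, so the count does not set the 9 genes apart. With group means removed, *C1qa* had r = 0.90 with *Lin7b*, a gene outside the 9. *C1qa* and *C1qc* had the highest values, with r = 0.85 and rho = 0.83 (permutation p = 1e-05 for both, the smallest the test can give, adjusted p = 2.77e-05), and r was between 0.64 and 0.96 within each of the 6 groups. Leaving out the 2 mice farthest from the median of *C1qa* gave r = 0.82. Here and below, the 2 mice were picked by 1 gene of a pair only. That gene was *C1qa* in its pairs, *C1qb* with *C1qc*, *C4b* with *Serping1* and *C3* with *Cfi*. An extreme mouse of the other gene could thus stay in. *C1qb* had r = 0.70 with *C1qa* and 0.70 with *C1qc* (rho = 0.60 and 0.61, permutation p = 1e-05, adjusted p = 2.77e-05), and 0.61 and 0.64 without the 2 farthest mice. With the slide means also removed, the 3 pairs of C1q genes had r between 0.68 and 0.79, and with array brightness removed between 0.69 and 0.83. For the deposited ratio, however, r was between 0.14 and 0.31, lower than with the offset ratio for each of the 3 pairs.

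*Serping1* and *C1qa* came next, with r = 0.79 (rho = 0.75, permutation p = 1e-05 for both, adjusted p = 2.77e-05), which was 0.75 without the 2 farthest mice, 0.69 with the slide means removed and 0.53 with the deposited ratio. *C4b* and the C1q genes had r between 0.13 and 0.27, above 0 in 3 of 6 groups for each pair and with an adjusted permutation p of at least 0.0904. *C4b* and *Serping1* had r = 0.55 and rho = 0.29 (permutation p = 0.00013 and 0.0185, adjusted p = 0.000334 and 0.0277), 0.43 without the 2 farthest mice and between −0.64 and 0.80 within the groups, with 3 of 6 groups above 0, and the deposited ratio gave 0.18. *C3* and *Cfi* had the most negative r at −0.69 (rho = −0.67, permutation p = 1e-05, adjusted p = 2.77e-05), −0.65 without the 2 farthest mice, between −0.86 and −0.55 within groups and −0.70 with the deposited ratio. It was −0.23 with the slide means removed (adjusted p = 0.0878) and −0.41 with array brightness removed.

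**Figure D5:**
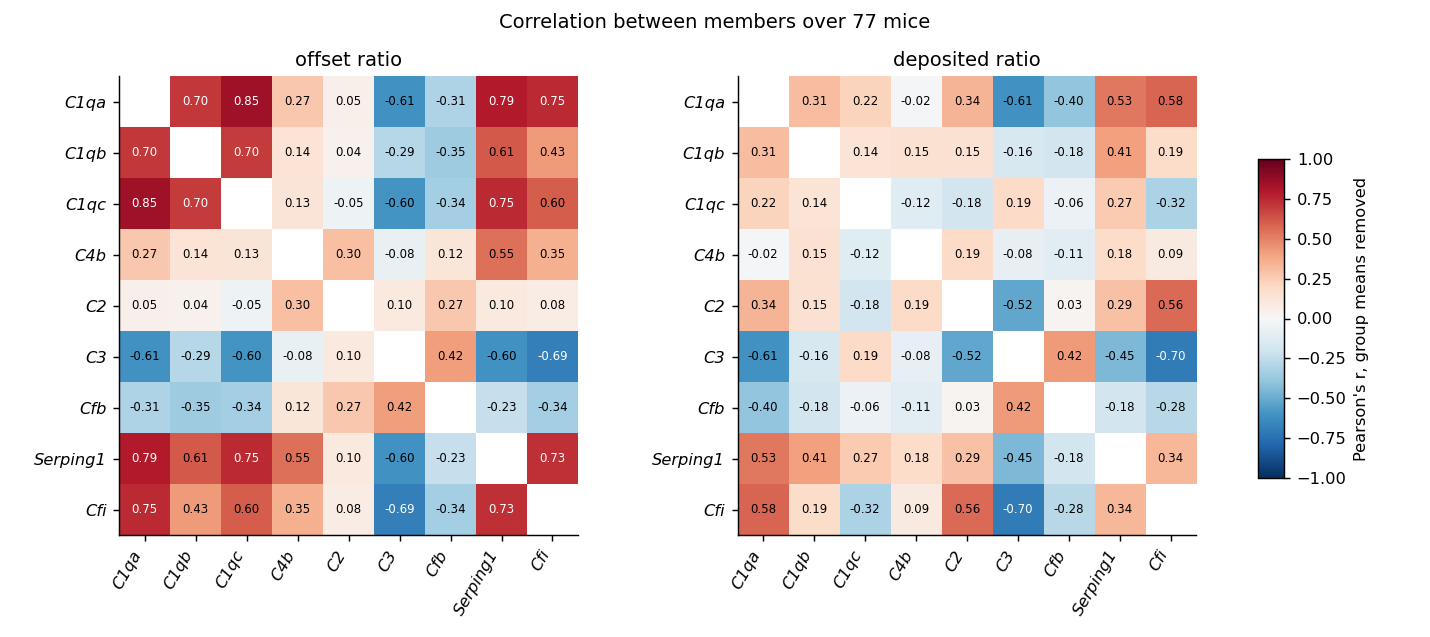
Pearson's r between the 9 genes over 77 mice with group means removed, for the offset ratio (left) and the deposited ratio (right), on a color scale from −1 to 1. The C1q genes form a block between 0.70 and 0.85 on the left that is between 0.14 and 0.31 on the right, and *C3* is negative with *Cfi* on both.

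Outside the 9, the genes whose offset ratio was most like that of *C4b* over the 77 mice, among 11782 genes that were well above background on at least 39 arrays, were *Edn2* (r = 0.94), *Cebpd* (0.90), *Rarres2* (0.86), *Tnip2* (0.85) and *2900057B20Rik* (0.84). The points share the oxygen and age differences, and with group means removed r was 0.53, 0.55, 0.51, 0.50 and 0.42. With the deposited ratio it was 0.83, 0.88, 0.84, 0.90 and 0.44 over all mice. For *C1qa* they were *Lin7b* (0.90), *Rgs5* (0.86), *Tbc1d9* (0.85), *Kcnip1* (0.84) and *Chst8* (0.84). These hardly changed with group means removed, at 0.85 to 0.90, and with the deposited ratio they were 0.52 for *Lin7b* and up to 0.87 for *Kcnip1*. *Edn2* and *Cebpd* are also on the reactive glia list, and no microglia marker was among the 5 genes most like *C1qa*. The lists were chosen with earlier results of these data known, so no cell source is read from this overlap. Which cells held the *C4b* and *C1qa* RNA was not tested.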

How the data were processed

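Retinal RNA of each of 77 mice was hybridized with reference RNA on an Agilent mouse array. The authors extracted spot intensity with Agilent Feature Extraction 10.7.3.1 and, by their methods, normalized in GeneSpring GX, with settings not given in the sources used here. The deposited log2 table equals log2 of the processed Cy3 over Cy5 intensity for 100% of the probes with a single spot on every array, within 0.001. Probes with several spots were not compared. Direction was taken from rod genes, against the dyes in the labels.

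Median signal and background intensity, as deposited in the scanner files, were corrected with normexp (offset 50), normalized by loess within arrays and averaged per probe in limma 3.58.1 (R 4.3.3). Between 0.592 and 0.951% of the 62976 spots per array, flagged as outliers, were left out. Differences were tested with limma per day over 55681 probes, and with 1 model of 6 group means for changes between days and ages, with Benjamini-Hochberg adjustment and a threshold of 0.05. Correlations were tested with 100000 permutations within groups (Python 3.11.15, numpy 2.4.6). The fits were tested on simulated data. Genes were named through RefSeq (GRCm38.p6, 28026 probes matched). The precision is limited by the number of arrays, and no 2 arrays held identical values.

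The members and gene lists were chosen with earlier results of these data known. Outside the 9, complement genes past the threshold for OIR against control were named, and the 5 genes with the highest Pearson's r to *C4b* and to *C1qa*. Alternatives were the deposited ratio, no background correction, Aquantile, the retina channel alone, dim probes left out, the slide as a block and 1 fit over all groups. Scaling between arrays, array brightness as a covariate and leaving out slide 9 were added after seeing the data.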

Additional observations from a re-analysis of the deposited data

Results flagged for a closer look

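The OIR difference of *Cd93*, a receptor-like protein of endothelial and myeloid cells, differed between days in a limma model of all 6 groups. It changed by 2.66 on the log2 scale from P12 to P17 (standard error 0.19, adjusted p = 9.69e-19) and by −1.17 from P17 to P28 (standard error 0.18, adjusted p = 3.59e-05). On P12, 0 of 13 OIR mice were above the control median, on P17 13 of 13 were, and on P28 12 of 13 were. With the deposited ratio the changes were 3.19 and −1.33. The mean in OIR mice (n = 13 on each day) was 0.81 ± 0.38 (SD) on P12, 3.05 ± 0.29 on P17 and 1.12 ± 0.30 on P28. That in control mice was 1.84 ± 0.37 (SD, n = 12), 1.42 ± 0.42 (SD, n = 12) and 0.65 ± 0.21 (SD, n = 14).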

How the results depend on the processing

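Of 294 single-gene differences under an alternative, judged by size for the 9 genes and by the test for *Cd93*, 269 stayed within the spread between mice or on their side of the threshold and 22 moved by more, 17 of them with the deposited ratio. *Cd93* became called on P28 in the other 3, and 0 called differences changed sign. Of the 9 genes, *C1qb* became called on P17 with the retina channel alone and *C1qc* on P28 with the retina channel alone and with scaling between arrays, while *Serping1* lost its call on P28 with the deposited ratio and with slide as a block. As these genes were picked with their differences known, their calls are a description only. Aquantile leaves ratios unchanged by construction. Leaving out dim probes and 1 fit over all groups likewise leave the differences of the 9 genes unchanged, as the group means stay the same. These values are among the 269 and say nothing on how firm the differences are. The percent of all probes called moved more. The deposited ratio gave 0.07% on P12, 2.64% on P17, 0.203% on P28, 1.39% and 0.584% for the changes between days and 2.57% for control mice from P12 to P17, in place of 0.0233%, 1.13%, 0.0611%, 0.48%, 0.278% and 1.28%. The retina channel alone gave 0.0718%, 3.11%, 0.296%, 1.76%, 1.04% and 3.18%. No background correction gave 1.87% on P17 and 0.11% on P28. Blocking on the slide gave 0.219% on P28, 0.941% for the first change and 3.16% for control mice from P12 to P17. A fit over all groups gave 0.149% on P28, and scaling between arrays 0.171% on P28 and 0.733% for the first change. Array brightness as a covariate gave 2.84% on P17, 0.14% on P28, 0.806% and 0.564% for the changes and 2.76% for control mice from P12 to P17. Without slide 9, 21.5% in place of 13.4% were called in control mice from P17 to P28. Of the 9 genes, 1 in place of 2 was called on P28 by the deposited ratio and by the fit with slide as a block. Of the other complement genes, 2 in place of 1 were called on P17 with the deposited ratio and the retina channel alone, and 1 in place of 0 on P28 with dim probes left out, the slide as a block or slide 9 left out. With slide means removed, 13 in place of 21 pairs of the 9 genes were called. The cause of these moves was not tested. Signal near background limits *Cfb*, *Cfi*, *C2*, *C1qa* and the dimmer *Serping1* probe on P12 and P17. No paired analysis was possible because the groups share no replicate numbers.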
